A study of Homo sapiens with 6 samples.

Results

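Oxidative phosphorylation runs on 5 complexes of the inner mitochondrial membrane. Complex I (NADH dehydrogenase) and complex II (succinate dehydrogenase) pass electrons through ubiquinone to complex III, cytochrome c carries them on to complex IV (cytochrome c oxidase), and complex V (ATP synthase) uses the proton gradient built on the way to make ATP. Most subunits are encoded in the nucleus and imported into the mitochondrion, where assembly factors that are not part of the finished complex help to put them together. A small core of subunits is encoded by mitochondrial DNA, so the complexes are built from the products of both genomes.

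The genes described here are the nuclear-encoded subunits and assembly factors of these complexes, chosen by gene name alone (names beginning with NDUF, SDHA to SDHD, UQCR, COX4 to COX8, COX10 to COX20, CYC1, CYCS, ATP5 or ATPIF1). Of 10515 rows in the table, 103 matched, 5 of them were pseudogenes and were left out, and 98 genes remained. By complex they were 44 genes of complex I, 8 of complex II, 10 of complex III with its electron carrier cytochrome c, 20 of complex IV and 16 of complex V. NDUFA4, named for complex I, was counted with complex IV, where its protein is now placed, and the ATP synthase genes are given by the older ATP5 symbols that the table uses. By role, 18 of the 98 were assembly factors.

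RNA-seq was performed on polyA RNA of 3 human bladder cancer (BC) cell lines that carry FGFR3 fusions, FGFR3-TACC3 in RT4 and RT112 cells and FGFR3-BAIBP2L1 in SW780 cells. Cells received DMSO or quisinostat, a pan-HDAC inhibitor, for 2 days, at 50 nM in RT4, 10 nM in RT112 and 25 nM in SW780 cells. Each line gave 1 DMSO and 1 quisinostat library, 6 libraries in all, so line and dose cannot be told apart and no difference within a line has a replicate check. The quisinostat library of SW780 cells carries another number (SW781) in its cell line label and was assigned to SW780 by its title. Values are FPKM, fragment counts divided by transcript size and library total, which can be compared between genes. Read totals are not part of the table, so the depth behind each value is unknown. Summed FPKM over the 10066 assembled loci ranged from 237363 to 263856 per library, 213 to 534 loci were at 0, and the median ranged from 6.59 to 7.39. Of 13 epithelial and urothelial markers, all were in the table. EPCAM was at 44.7 FPKM or more in every library, UPK3A was at 0 in both RT112 libraries and KRT5 was 0.0433 and 0.00976 FPKM in RT4 cells. The 12 markers with a ratio had median log2 ratios, quisinostat over DMSO, of −1.004, 0.52 and −0.75 (RT4, RT112, SW780), and their part in the results was not tested. Of 10 markers of blood, endothelial and fibroblast cells, only COL1A1 was found, at 0.0342 to 1.45 FPKM. A name missing from the table does not show that the gene was not expressed.

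Promoters of respiratory genes are known for binding sites of NRF1, of ETS factors such as GABP, and of YY1, and the RefSeq promoter windows (GRCh38.p14, 250 bases before to 50 after the start) gave 83 of the 98 genes. The NRF1 core CGCATGCG, which reads the same on both strands, was found in 12 of the 83 windows (14.5%, against 3.33% of the 10402 windows of genes in the FPKM table and 2.02% of all 35116 RefSeq windows). The ETS core CCGGAAGT, on either strand, was found in 13 (15.7%, against 7.85% and 4.14%), and the YY1 core AAGATGGCG in 9 (10.8%, against 3.81% and 1.75%). The 3 strings do not overlap each other in the windows shown. SDHD and ATP5J are shown because they hold more than one of the strings, ATP5G2 because it was lower with quisinostat in all 3 lines and UQCRH because it is among the most abundant members. Each runs from 150 bases before to 20 after the start, 5′ to 3′ on the gene's strand, with the matched letters in capitals. ATP5G2 lies at chr12:53676064-53676233 (minus strand), SDHD at chr11:112086723-112086892 (plus), ATP5J at chr21:25735035-25735204 (minus) and UQCRH at chr1:46303548-46303717 (plus).
ATP5G2: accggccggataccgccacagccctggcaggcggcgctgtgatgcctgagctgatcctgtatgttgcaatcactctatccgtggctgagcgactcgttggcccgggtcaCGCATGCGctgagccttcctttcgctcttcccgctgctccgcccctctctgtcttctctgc
SDHD: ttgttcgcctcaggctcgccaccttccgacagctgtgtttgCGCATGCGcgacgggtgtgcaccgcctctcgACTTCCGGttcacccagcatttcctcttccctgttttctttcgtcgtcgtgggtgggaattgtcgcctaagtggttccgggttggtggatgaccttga
ATP5J: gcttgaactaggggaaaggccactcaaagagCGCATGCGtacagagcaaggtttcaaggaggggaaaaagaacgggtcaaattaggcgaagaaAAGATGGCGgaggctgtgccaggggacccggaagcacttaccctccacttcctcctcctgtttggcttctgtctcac
UQCRH: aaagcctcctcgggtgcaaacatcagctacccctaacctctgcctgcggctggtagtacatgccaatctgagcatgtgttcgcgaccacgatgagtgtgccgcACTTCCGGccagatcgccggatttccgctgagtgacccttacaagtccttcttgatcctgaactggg
The 11 measured members with the NRF1 core had median log2 ratios of −0.14, 0.22 and −0.14 (RT4, RT112, SW780), and the 70 without it had −0.12, −0.18 and −0.03, a difference that was not tested. A match describes letters only and is not evidence of binding.

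In the DMSO libraries the members were among the well expressed genes of these cells, with medians of 34.3 FPKM in RT4, 32.5 in RT112 and 31.0 in SW780, against medians over all loci of 6.86, 6.59 and 6.93. Together they made up 2.08%, 2.00% and 1.90% of summed FPKM in the DMSO libraries, and 1.94%, 1.59% and 1.89% in the quisinostat libraries of the same lines. In RT112 cells the summed FPKM of the members was 5137 with DMSO and 4130 with quisinostat. ATP5B, the catalytic beta subunit of ATP synthase, was the most abundant member in every DMSO library, at 487 FPKM in RT4, 418 in RT112 and 393 in SW780. Between the DMSO libraries, the highest line over the lowest had a median of 1.52 over 97 members, and 25 were over 2-fold. Those over 4-fold, 9 in all, were NDUFS7, NDUFA3, NDUFA11, NDUFA13, NDUFB7, NDUFV3, NDUFAF3, NDUFAF5 and COX11. The same measure over all loci was not set beside these values, so they are not read as a trait of the members.

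The main comparison was quisinostat against DMSO within each line, as the log2 ratio of the 2 FPKM values. A gene was called lower or higher past 0.3 on the log2 scale. The study applies that size to genes lower in all 3 lines, as the input to its gene ontology enrichment. Its use for higher genes and for single lines was a choice made here. Of the 98 members, 96 were above 0 in all 6 libraries and entered the counts. NDUFS7 and COX7B2 did not, and their values are given with their complexes. In RT4 cells 41 of 96 members were lower (42.7%, against 33.5% of 9112 loci) and 22 were higher (22.9% against 40.3%). In RT112 cells 40 were lower (41.7% against 25.2%) and 15 were higher (15.6% against 36%). In SW780 cells 21 were lower (21.9% against 28.2%) and 19 were higher (19.8% against 32.8%). For RT4, RT112 and SW780 cells in that order, the median log2 ratio was −0.10, −0.19 and 0.01 over the members and 0.08, 0.06 and 0.04 over all loci. Members were thus called higher less often than the whole table in each line, and called lower more often in RT4 and RT112 cells but not in SW780 cells, which is a description and was not tested. After a correction for transcript length the RT4 split was 30 lower and 29 higher, and its 31.3% lower no longer exceeded the table's 35.4%. Centring each line on its median turned the SW780 split to 23 lower and 13 higher (24.0% and 13.5%, against 30.4% and 30.6% of loci). Rescaling to a common sum turned it to 17 and 21 (17.7% and 21.9%, against 26.3% and 34.6%). The length correction turned it to 20 and 22 (20.8% and 22.9%, against 29.1% and 30.8%). Among the 88 members with a mean FPKM of at least 5 it was 16 lower and 17 higher. The side with more calls in SW780 cells thus depended on the processing, while under each of these both shares stayed below the table's.

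**Figure D1:**
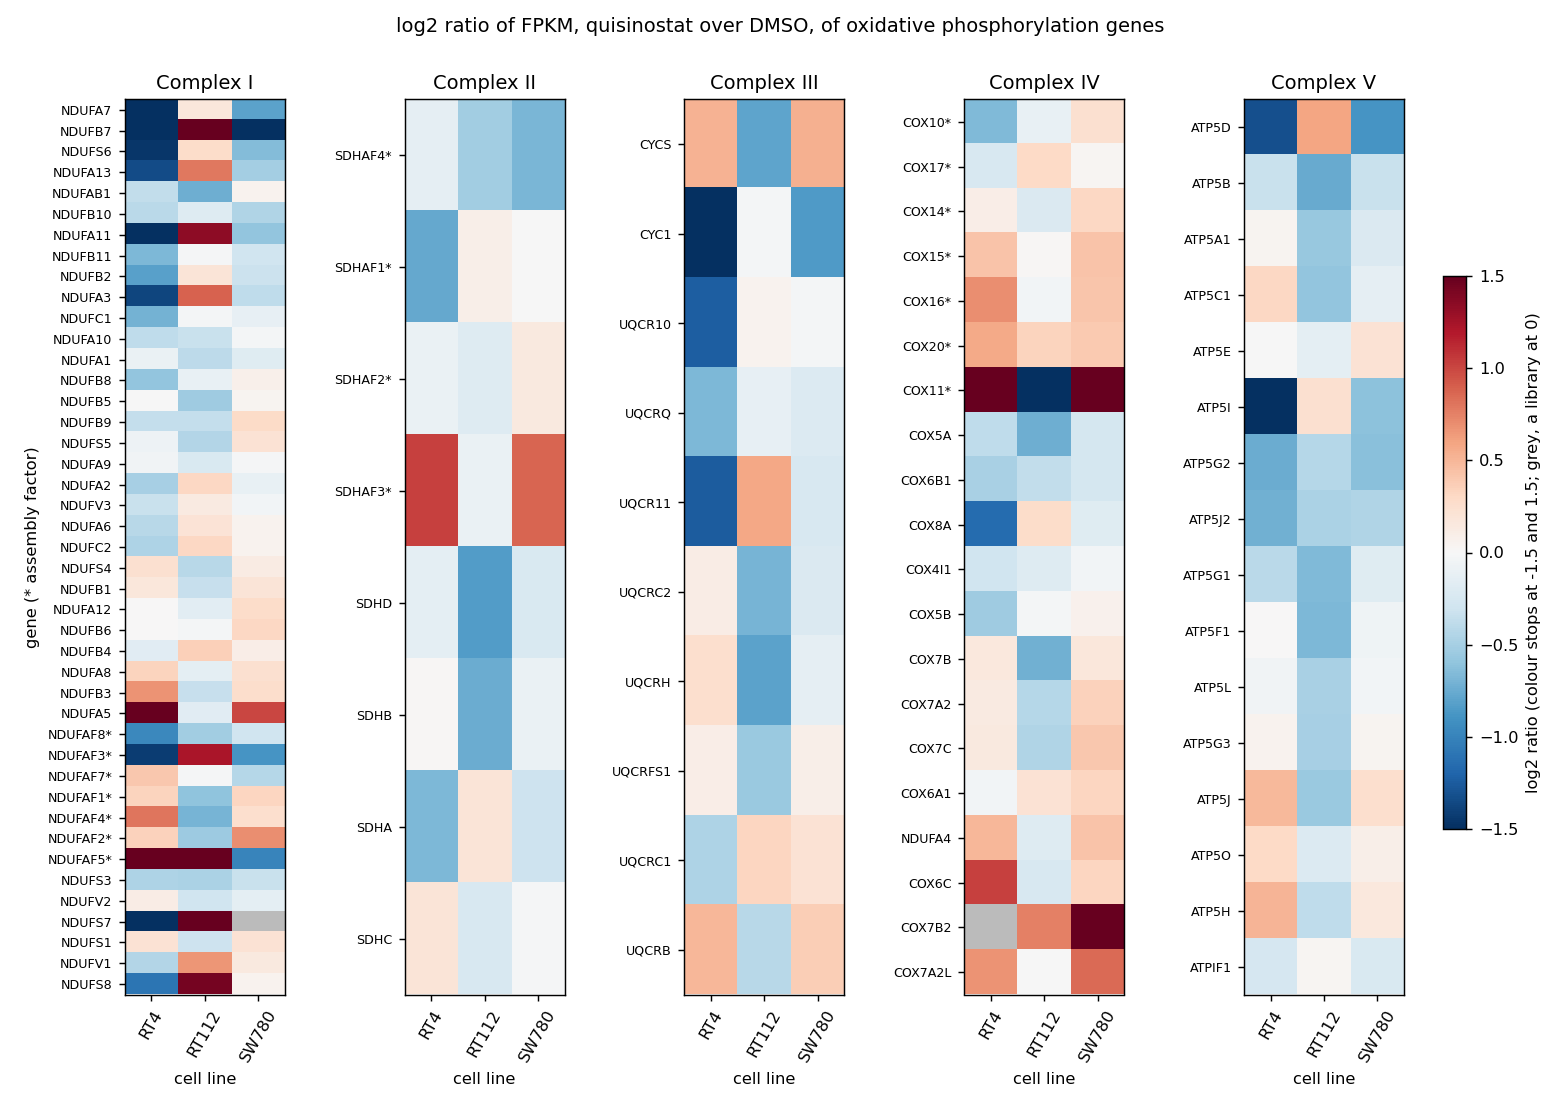
Log2 ratio of FPKM, quisinostat over DMSO, for the members (rows, by complex, assembly factors marked with an asterisk) in RT4, RT112 and SW780 cells (columns). Blue is lower and red is higher with quisinostat, colour stops at −1.5 and 1.5, and grey marks a library at 0. Of 96 members 20 were below 0 and 2 above 0 in all 3 lines, of which 4 and 1 were past 0.3.

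The share of members lower in all 3 lines was close to that of the table, and the share higher in all was below it. Lower past 0.3 in all of them were 4 of 96 members (4.17%, against 4.99% of all loci), and higher in all was 1 (1.04% against 11.4%). The 4 were ATP5B, ATP5G2, ATP5J2 and NDUFS3, and the 1 was COX20. Rescaling every library to a common sum left ATP5G2 and ATP5J2 lower in all 3, and COX20 no longer passed in every line with a pseudocount of 1, after centring or after either the GC or the length correction. With RT112 left out, 18 members were lower and 13 higher in both other lines, and with SW780 left out 11 were lower and 2 higher. With RT4 left out the counts were 5 and 1. Shares over all loci were not set beside these leave-one-out counts, so they are not read as a trait of the members. A ratio below 0 in all 3 lines, of any size, was found for 20 members (20.8%, against 16.6% of all loci), and a ratio above 0 in all of them for 2 (2.08% against 22.9%).

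Taking the 3 lines as replicates, limma on log2(FPKM + 1) with the cell line as a block called 0 of 9430 loci, 0% at an adjusted p under 0.05 (Benjamini-Hochberg), and so none of the members. At an unadjusted p under 0.05, 392 loci were lower (4.16%) and 913 higher (9.68%), among them 5 members lower and 0 higher. These were ATP5G2 with a log2 change of −0.59 ± 0.17 (SE, limma adjusted p = 0.311), ATP5J2 with −0.54 ± 0.17 (limma adjusted p = 0.317), ATP5B with −0.47 ± 0.18 (limma adjusted p = 0.345), CYC1 with −0.93 ± 0.37 (limma adjusted p = 0.355) and COX5A with −0.45 ± 0.18 (limma adjusted p = 0.359). Over the alternative fits the adjusted p of these 5 ranged from 0.143 to 0.973. With RT112 left out, 12 of 98 members were lower and 5 higher at an unadjusted limma p under 0.05, beside 889 and 1173 of 9430 loci. With SW780 left out 0 members were lower and 1 higher, beside 74 and 390 loci. An exact sign-flip permutation test of a single gene over 3 pairs cannot give a p under 0.25.

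**Figure D2:**
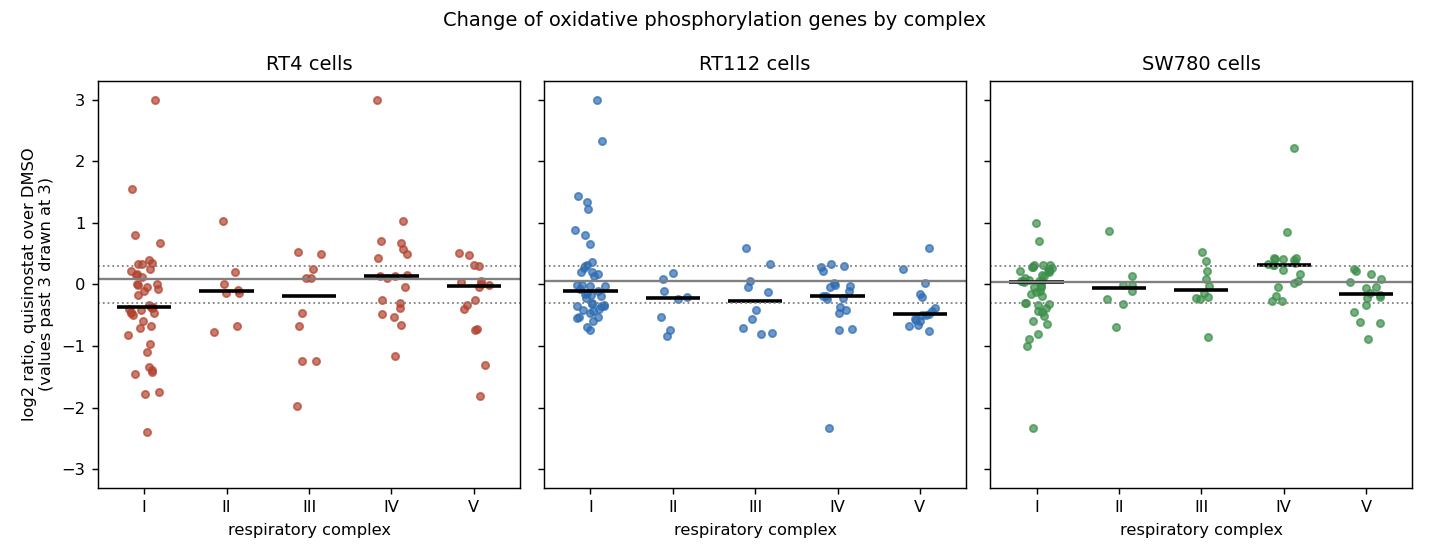
Log2 ratio of quisinostat over DMSO (vertical axis) for the 96 members above 0 in all libraries (points), by complex, with 1 panel for each cell line. Black bars are medians of a complex, the grey line is the median of all loci, dotted lines mark 0.3 and −0.3, and values past 3 are drawn at 3. Complex I sits lowest in RT4 cells (−0.36), complex V in RT112 cells (−0.48), and complex IV is highest in SW780 cells (0.32).

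Complex V was lower mainly in RT112 cells. There 11 of its 16 members were lower and 1 higher, with a median of −0.48 (68.8% and 6.25%, against 25.2% and 36% of all loci), and the medians were −0.03 in RT4 and −0.16 in SW780 cells. Its catalytic head, F1, is made of alpha (ATP5A1), beta (ATP5B), gamma (ATP5C1), delta (ATP5D) and epsilon (ATP5E) subunits. ATP5B went from 487 FPKM with DMSO to 388 with quisinostat in RT4, from 418 to 247 in RT112 and from 393 to 311 in SW780 cells. Every quisinostat library was below every DMSO library for this gene, and its log2 ratios were −0.33, −0.76 and −0.34. ATP5A1, the other subunit of the catalytic ring, was 138 and 142 FPKM in RT4, 65.3 and 44.0 in RT112 and 98.9 and 85.4 in SW780 cells, so it was lower past 0.3 in RT112 cells only.

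The FO part of ATP synthase holds the ring of c subunits through which protons pass, and 3 genes encode the same mature c subunit. ATP5G2 was 60.7 and 36.3 FPKM in RT4 (DMSO and quisinostat), 46.3 and 34.3 in RT112 and 45.5 and 29.6 in SW780 cells. ATP5G1 was 48.9 and 37.0, 38.6 and 24.4, and 47.8 and 42.3 in the same order. ATP5G3 was 41.4 and 43.0, 42.9 and 30.3, and 32.7 and 33.8. The 3 genes had similar levels with DMSO and differed in how many lines they were lower in past 0.3: ATP5G2 in 3, ATP5G1 in RT4 and RT112 cells, and ATP5G3 in RT112 cells.

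ATP5J2, which encodes the f subunit of FO, was 174 and 105 FPKM in RT4, 145 and 104 in RT112 and 126 and 92.2 in SW780 cells. Its quisinostat values, like those of ATP5G2, lay below all of its DMSO values. ATP5I, the e subunit that helps ATP synthase to form dimers, was 173 and 49.4 in RT4, 184 and 218 in RT112 and 109 and 71.3 in SW780 cells, the lowest ratio of the complex in RT4 cells (−1.81). ATPIF1, the inhibitor that keeps ATP synthase from running in reverse, stayed within 0.3 in each line, at 30.3 and 25.4, 26.1 and 26.5, and 29.9 and 25.6 FPKM.

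**Figure D3:**
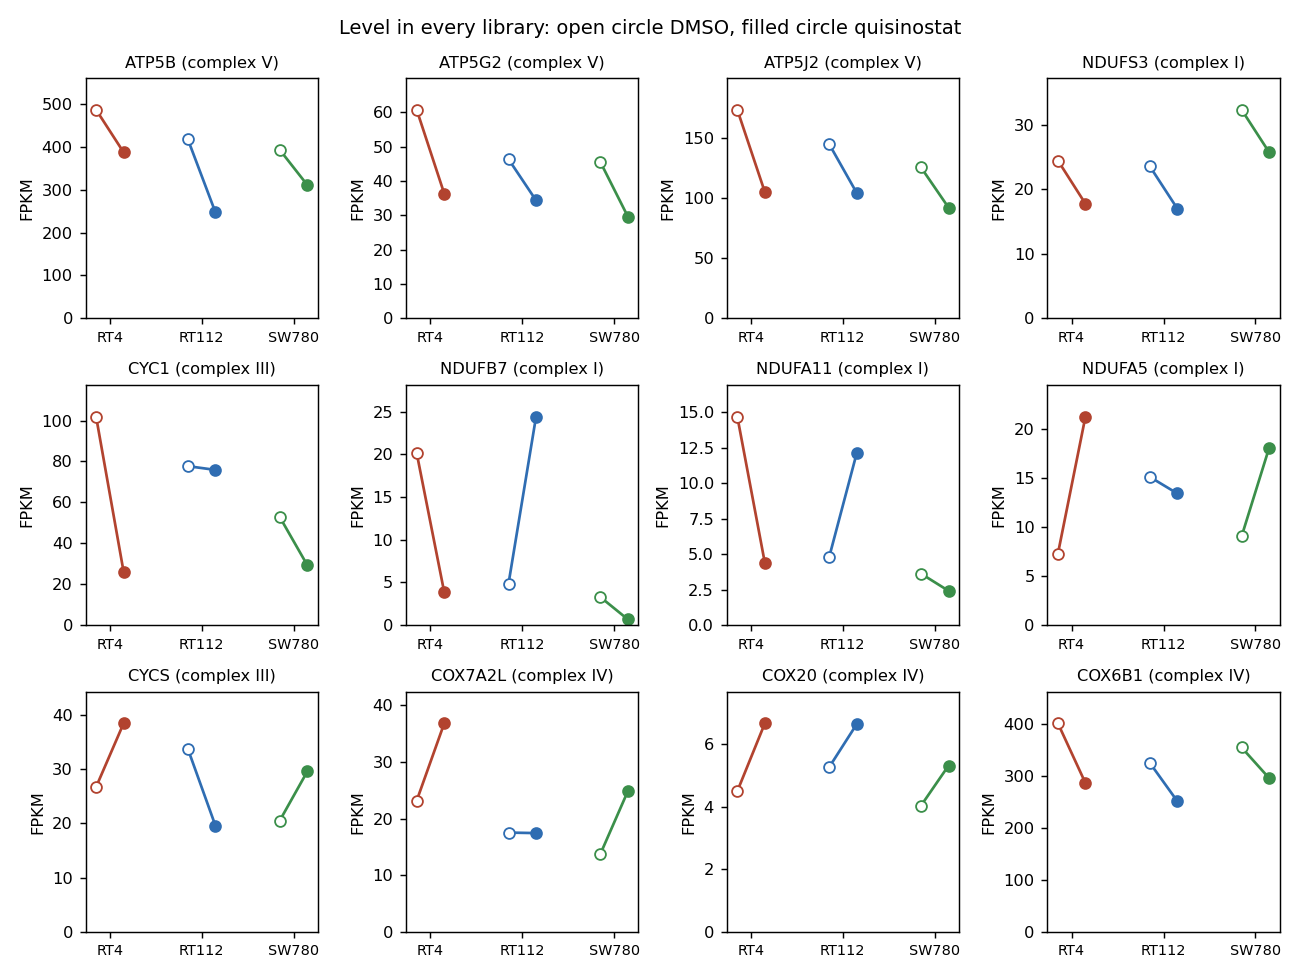
FPKM (vertical axis, from 0) of 12 members in each library, by cell line, with open circles for DMSO and filled circles for quisinostat. ATP5B, ATP5G2, ATP5J2 and COX6B1 were lower with quisinostat in every line, COX20 was higher in every line, and NDUFB7 and NDUFA11 were higher in RT112 and lower in the other lines.

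Complex I was lower mainly in RT4 cells, where 23 of 43 members were lower and 8 higher (53.5% and 18.6%, against 33.5% and 40.3% of all loci) with a median of −0.36, while the medians were −0.11 in RT112 and 0.04 in SW780 cells. Of its accessory subunits, which surround the catalytic core, 18 of 30 were lower in RT4 cells and 3 higher (60% and 10%). The core subunits bind the flavin and the iron-sulfur clusters, and they did not move together. NDUFS3 was 24.5 and 17.8 FPKM in RT4, 23.6 and 17.0 in RT112 and 32.4 and 25.7 in SW780 cells, lower in all 3, though its assembled locus also carries the name PTPMT1. NDUFV2 was 85.8 and 92.8, 82.0 and 66.7, and 87.8 and 79.2, and was within 0.3 in each line. NDUFS1 was 12.4 and 14.4, 13.0 and 10.5, and 15.7 and 18.3, lower past 0.3 in RT112 cells only (−0.32).

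The core subunits NDUFS7, NDUFS8 and NDUFV1 were lower in RT4 and higher in RT112 cells. NDUFS8 was 14.3 and 6.68 FPKM in RT4, 7.04 and 18.99 in RT112 and 10.5 and 10.8 in SW780 cells. NDUFV1, the flavoprotein subunit that accepts electrons from NADH, was 33.6 and 24.7, 23.1 and 36.5, and 18.1 and 20.1. NDUFS7 was 6.13 and 0.848 in RT4, 0.596 and 4.59 in RT112 and 1.05 and 0 in SW780 cells, where it was listed at 0. With the trend on transcript GC content removed, the RT4 ratios of NDUFS8 and NDUFV1 were above 0 (0.0094 and 0.26). In each of the 3 genes RT112 had a lower DMSO value than RT4 and a higher quisinostat value.

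The widest difference between lines among complex I subunits with a ratio in every line was that of NDUFB7, an accessory subunit. It was 20.2 and 3.84 FPKM in RT4 (log2 ratio −2.39), 4.86 and 24.5 in RT112 (2.33) and 3.28 and 0.654 in SW780 cells (−2.33). NDUFA3, NDUFA11, NDUFA13, NDUFAF3 and ATP5D shared this order, lower in RT4 and SW780 and higher in RT112 cells past 0.3. The locus of ATP5D also carries the names STK11 and MIDN, and that of NDUFA11 the name AC024592.3, so their values may not be those of 1 gene. NDUFA11 was 14.7 and 4.37, 4.78 and 12.1, and 3.62 and 2.41. The reverse order, higher in RT4 and SW780 and lower in RT112 cells, was found for NDUFAF1, NDUFAF2, UQCRB, CYCS and COX11. These sets were picked out after their values were seen, and the same GC correction turned both the RT4 and the RT112 ratio of ATP5D (0.34 and −0.70).

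Assembly factors and subunits had different medians in RT4 and SW780 cells, a difference that was not tested. Over all complexes the 18 assembly factors had medians of 0.34, −0.11 and 0.24 (RT4, RT112, SW780), and the 75 subunits had −0.30, −0.20 and −0.04. In RT4 cells 10 of 18 assembly factors were higher and 4 lower, against 10 higher and 37 lower of 75 subunits, and of all loci 40.3% were higher and 33.5% lower. In RT112 cells 33.3% of assembly factors and 44% of subunits were lower, and 16.7% and 16% higher. The 7 complex I factors alone had a median of −0.30 in SW780 cells. The 33 assembly factors under other names, described at the end, were split 9 higher and 14 lower in RT4 cells. Assembly factors also had lower transcript GC content (median 44.4% against 47.9%) and longer transcripts (median 2022.5 bases against 1256). Their medians after GC correction were 0.12, −0.14 and 0.22, against −0.33, −0.21 and −0.11 for subunits. NDUFAF8 was the complex I assembly factor closest to lower in all lines, at 8.79 and 4.50 FPKM in RT4, 14.4 and 10.0 in RT112 and 11.2 and 9.14 in SW780 cells, with a ratio of −0.295 in the last. NDUFAF5 was low and irregular, at 0.347 and 3.20, 0.114 and 0.979, and 2.38 and 1.20.

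Complex II links the citric acid cycle to the respiratory chain through 4 subunits. The flavoprotein SDHA was 52.9 and 33.1 FPKM in RT4, 36.4 and 41.5 in RT112 and 58.8 and 47.3 in SW780 cells. The iron-sulfur subunit SDHB was 43.3 and 43.8, 69.4 and 41.5, and 87.5 and 81.6. Of the membrane anchors, SDHC was 9.63 and 11.03, 7.97 and 6.77, and 12.5 and 12.4, and SDHD was 68.6 and 62.0, 96.0 and 53.9, and 86.1 and 73.2. SDHB and SDHD were lower past 0.3 in RT112 cells alone (−0.74 and −0.83) and SDHA in RT4 and SW780 cells, so the catalytic pair did not move together. Among the assembly factors SDHAF3 was 3.68 and 7.47, 3.90 and 3.63, and 3.87 and 7.07, and SDHAF4 was 3.06 and 2.79, 3.58 and 2.49, and 1.71 and 1.06. SDHAF1 was lower in RT4 cells (−0.77, or 0.34 after GC correction), and SDHAF2 stayed within 0.3 in every line.

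In complex III, 5 of 10 members were lower in RT4 cells, 5 in RT112 cells and 1 in SW780 cells (50%, 50% and 10%, against 33.5%, 25.2% and 28.2% of all loci), and 2 were higher in each line (20%, against 40.3%, 36% and 32.8%). CYC1, cytochrome c1, was 102 and 26.0 FPKM in RT4, 77.7 and 75.9 in RT112 and 52.8 and 29.3 in SW780 cells, with log2 ratios of −1.97, −0.03 and −0.85. CYCS, the cytochrome c that takes electrons from CYC1, was 26.7 and 38.4, 33.7 and 19.5, and 20.5 and 29.5, with ratios of 0.53, −0.79 and 0.53. The pair of heme proteins therefore moved in opposite directions in RT4 and SW780 cells. UQCRH, the hinge protein between them, was 343 and 409.6, 330.0 and 189.8, and 228 and 208, lower past 0.3 in RT112 cells.

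Complex IV was the only complex with a median above that of all loci in SW780 cells by more than 0.1: 11 of 19 members were higher and 0 lower (57.9% and 0%, against 32.8% and 28.2% of all loci), with a median of 0.32. In RT4 cells its median was 0.13 and in RT112 cells −0.19. In SW780 cells 5 of its 7 assembly factors and 5 of its 11 subunits were higher (71.4% and 45.5%), with medians of 0.40 and 0.17. Most lay near the threshold: apart from COX7A2L (0.86) and COX11 (2.22), the higher members ran from 0.31 (COX14) to 0.43 (COX15). With the trend on transcript GC content removed, fewer stayed higher past 0.3 in SW780 cells. Those left were COX7A2L (0.75), COX11 (2.06), COX14 (0.38), COX15 (0.34) and COX6A1 (0.34). COX5A was then lower (−0.34), and of all loci 30.5% were higher and 28.7% lower under that correction. COX4I1, the largest nuclear-encoded subunit, was 121 and 98.7 FPKM in RT4, 129 and 113 in RT112 and 101 and 97.95 in SW780 cells, below its DMSO library in every line but inside the threshold (−0.30, −0.20 and −0.04). COX5A was 99.0 and 76.2, 81.6 and 49.1, and 66.0 and 55.1, and COX6B1, an abundant subunit facing the intermembrane space, was 402 and 287, 326 and 252, and 356 and 296. Both were below their DMSO library in every line, with the SW780 ratio inside the threshold at −0.26 each.

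COX7A2 was 95.6 and 105 FPKM in RT4, 94.1 and 70.2 in RT112 and 67.4 and 85.8 in SW780 cells. Its relative COX7A2L, which joins complexes III and IV into supercomplexes, was 23.2 and 36.8, 17.5 and 17.4, and 13.7 and 24.9. NDUFA4 was 75.7 and 107, 57.5 and 50.5, and 58.6 and 78.8. COX7A2L and NDUFA4 were thus higher past 0.3 in RT4 and SW780 cells but not in RT112 cells. COX6A1 stayed near its DMSO value in RT4 (73.8 and 71.8) and was 54.8 and 63.7 in RT112 and 44.6 and 55.7 in SW780 cells, at a locus that also carries the name GATC. COX7B2, an isoform known mainly from testis, was 0 and 0 in RT4, 0.823 and 1.40 in RT112 and 0.949 and 8.65 in SW780 cells.

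COX20, a chaperone of the mitochondrially encoded subunit COX2, was the member higher in all lines, at 4.49 and 6.66 FPKM in RT4, 5.26 and 6.63 in RT112 and 4.03 and 5.31 in SW780 cells. COX15, which makes the heme A of complex IV, was 7.98 and 10.8, 9.36 and 9.47, and 9.94 and 13.4. COX11, a copper chaperone, had the widest range of all members, at 0.195 and 4.28 in RT4, 4.64 and 0.926 in RT112 and 0.441 and 2.05 in SW780 cells. These assembly factors were expressed at far lower levels than the subunits, and COX11 was under 1 FPKM in 3 libraries.

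The log2 ratios of the members moved with the GC content of their transcripts. GC content was computed on each gene's longest coding transcript (GENCODE 29) and ran from 35.0% (NDUFA5) to 69.6% (ATP5D). Over the 96 members Spearman's rho between GC content and the ratio came to −0.75 for RT4, 0.41 for RT112 and −0.53 for SW780. Over 8492 loci with a GC value it was −0.49, 0.44 and −0.22, so the sign was that of the whole table. Genes are not independent replicates, and each rho comes from 1 pair of libraries. The DMSO levels, each over the geometric mean of the 3 DMSO libraries, also varied with GC content. Their rho was 0.45, −0.37 and −0.05 over the members (RT4, RT112, SW780) and 0.38, −0.25 and −0.21 over 8492 loci. The part of the DMSO libraries in the trends of the ratios was not tested.

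**Figure D4:**
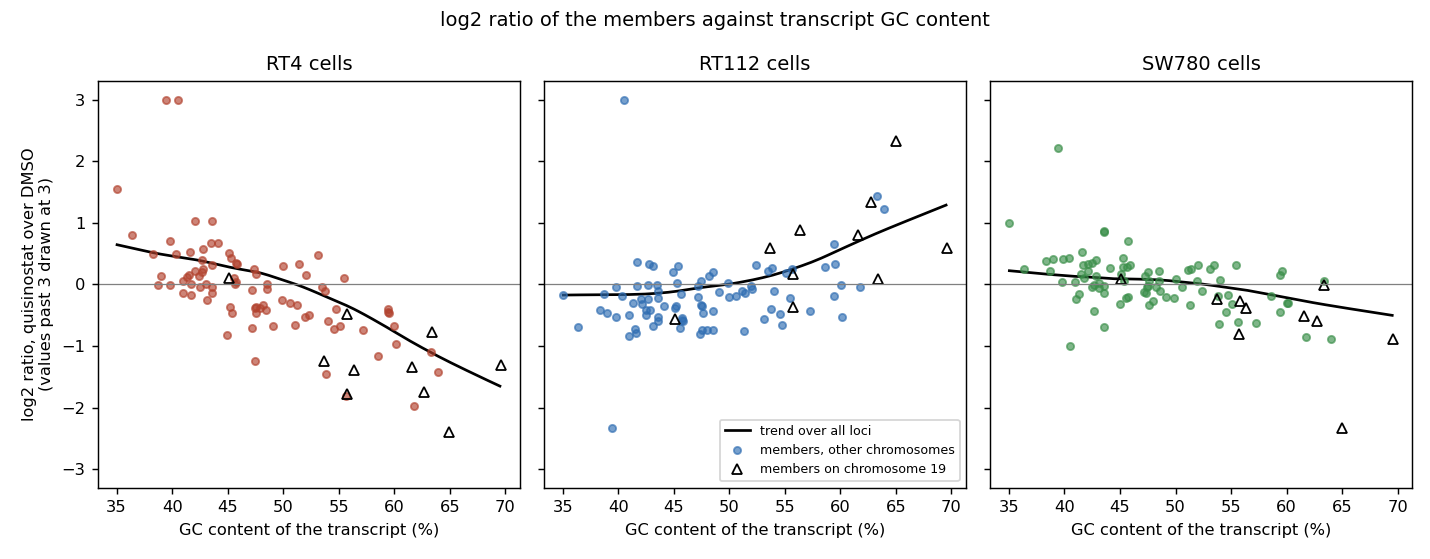
Log2 ratio of quisinostat over DMSO (vertical axis, values past 3 drawn at 3) against transcript GC content in percent (horizontal axis) for the 96 members, with 1 panel for each cell line. Triangles are members on chromosome 19 and the black curve is the trend over all loci. Of the 32 members with the highest GC content 27 were lower past 0.3 in RT4 cells, and in RT112 cells 11 were higher and 7 lower.

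In the third of members with the highest GC content, 27 of 32 were lower in RT4 cells (84.4%) while in RT112 cells 11 were higher (34.4%) and 7 lower. Of all loci in the same GC range, 59.9% were lower in RT4 and 59.3% higher in RT112 cells, where the table as a whole had 36% higher. In the third with the lowest GC content, 0 of 32 were lower in RT4 cells and 14 were higher (43.8%), while in RT112 cells 16 were lower and 3 higher (50% and 9.38%). Of all loci in that range 10.8% were lower and 59.7% higher in RT4, and 37.8% lower and 18.1% higher in RT112 cells. The first 120 coding bases of NDUFB7 (69.2% G or C, chr19:14566926-14572000, minus strand, over 2 coding exons) and of CYCS (47.5%, chr7:25124000-25124119, minus strand) are shown, 5′ to 3′ with every G and C in capitals, because these genes moved in opposite directions in each line.
NDUFB7: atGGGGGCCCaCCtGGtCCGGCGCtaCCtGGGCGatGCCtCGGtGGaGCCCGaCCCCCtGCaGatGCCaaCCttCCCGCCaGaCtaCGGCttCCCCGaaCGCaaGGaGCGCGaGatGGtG
CYCS: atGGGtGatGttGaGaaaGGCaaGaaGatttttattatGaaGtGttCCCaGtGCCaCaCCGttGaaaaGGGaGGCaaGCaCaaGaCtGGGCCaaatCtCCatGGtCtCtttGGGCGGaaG
Both are in coding exons of GRCh38 as GENCODE 29 annotates them.

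The 6 members lower in RT4 and SW780 and higher in RT112 cells had GC contents of 56.4% to 69.6%, and 5 of them lie on chromosome 19, a GC-rich chromosome. The 5 with the reverse order had 38.3% to 45.9% and none lies there. The 10 measured members on chromosome 19 had medians of −1.33, 0.59 and −0.44 (RT4, RT112, SW780). All 542 loci of that chromosome had −0.61, 0.50 and −0.12. The part of GC content in these ratios was not tested, and chromosome and GC content cannot be told apart for these genes.

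With the trend on GC content removed, the medians of the members were −0.26, −0.21 and −0.08 (RT4, RT112, SW780), with medians over all loci of 0.01, −0.01 and 0.00. The split was 45 lower and 12 higher in RT4 cells (46.9% lower, against 33.4% of loci). The members lower in all 3 lines were then ATP5B, ATP5J2, COX5A, CYC1, NDUFS3, SDHAF4 and SDHD, 7 of 96 (7.29%, against 7.74% of loci), and none was higher in all. ATP5B, ATP5J2 and NDUFS3 were on both lists, and ATP5G2 was not. Complex V kept the lowest median in RT112 cells at −0.46, and complex IV the highest in SW780 cells at 0.23.

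**Figure D5:**
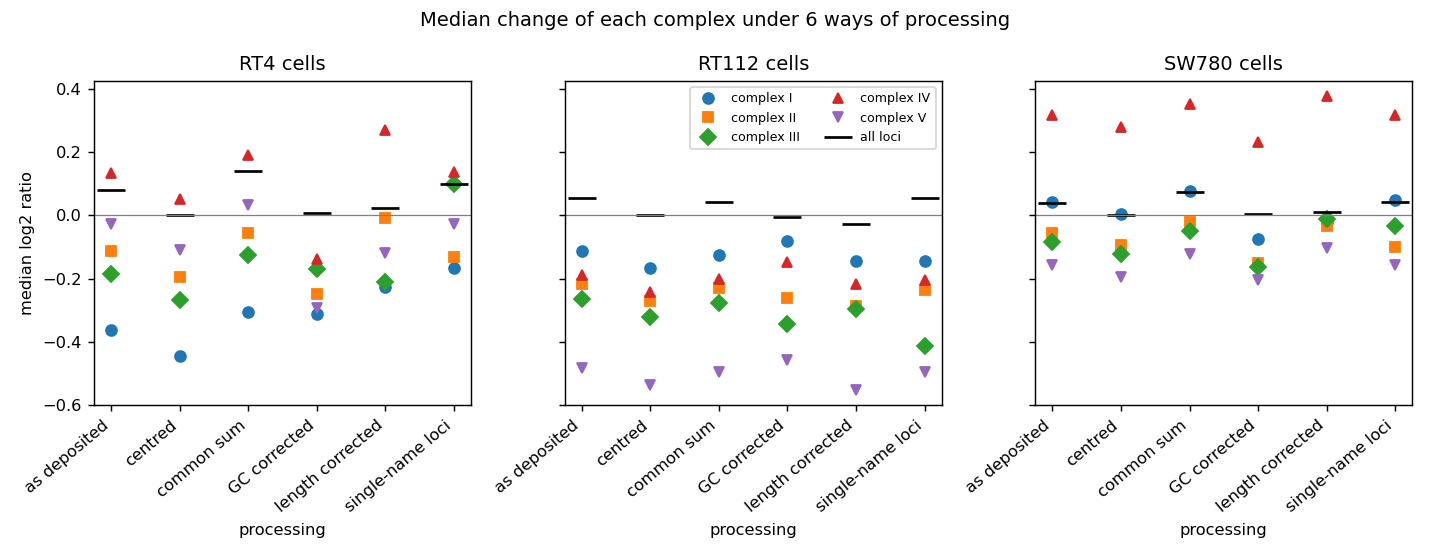
Median log2 ratio of each complex (symbols) and of all loci (black bars) under 6 ways of processing (horizontal axis), with 1 panel for each cell line. Complex V lies lowest in RT112 cells and complex IV highest in SW780 cells under each of them, while the order of the complexes in RT4 cells differs between them.

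Genes around the complexes were measured from lists of the same pathway, to be read against 33.5%, 25.2% and 28.2% of all loci lower and 40.3%, 36% and 32.8% higher (RT4, RT112, SW780). The 13 mitochondrially encoded subunits, at 10 assembled loci, had medians of −0.34, 0.11 and −0.01 (RT4, RT112, SW780), with 6, 0 and 1 loci lower and 2, 2 and 0 higher. MT-CO2 was 10326 and 6809 FPKM in RT4, 11497 and 12515 in RT112 and 13143 and 11295 in SW780 cells, far above any nuclear member. In RT112 cells the nuclear members had a median of −0.19 and the mitochondrially encoded loci 0.11, beside 0.06 over all loci, a difference that was not tested. Of the 18 citric acid cycle and pyruvate dehydrogenase genes found, 8, 9 and 4 were lower (44.4%, 50% and 22.2%) and 7, 2 and 1 higher (38.9%, 11.1% and 5.56%), and only SUCLG2 was lower in all 3. Of 7 carriers and channels of the mitochondrial membranes 1, 5 and 2 were lower and 2, 1 and 1 higher, and VDAC1, the main channel of the outer membrane, was 177 and 165, 249 and 139, and 213 and 127.

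Assembly factors under other names were found for complex I (10), complex III (4), complex IV (15) and ATP synthase (4). For complex I 4, 2 and 2 were lower and 4, 2 and 4 higher in RT4, RT112 and SW780 cells, and for complex IV 5, 5 and 3 were lower and 4, 5 and 4 higher. For complex III 3, 2 and 1 were lower and 0, 1 and 0 higher. FMC1, at a locus of 3 gene names, was the ATP synthase factor lower in all 3 lines. Of 13 regulators of respiratory gene transcription listed, 9 were found, and NRF1, GABPA, PPARGC1B and TWNK were not in the table. Of the 9, 8 had a ratio in every line, with 4, 5 and 2 lower and 2, 2 and 1 higher. PPRC1, a coactivator of the PGC-1 family at a locus of 2 gene names, was lower in all, at 29.3 and 14.5, 32.0 and 22.3, and 25.5 and 16.9. PPARGC1A, which encodes PGC-1 alpha, was 0.171 and 3.95 in RT4, 0 and 0.131 in RT112 and 0 and 0.0111 in SW780 cells. TFAM, which packages and transcribes mitochondrial DNA, was 8.89 and 7.61, 14.3 and 9.56, and 11.3 and 10.5.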

How the data were processed

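RNA was extracted with the TRIZol Plus kit and libraries were made with the TruSeq Stranded mRNA kit, per the labels. According to the submitters' processing notes the reads were handled with CASAVA 1.8.2, Trimmomatic 0.36, HISAT2 2.2.1, SAMtools 1.15.1 and StringTie 2.2.1 on GRCh38. The annotation release is not given in the sources used here. The deposited table holds FPKM per assembled locus, 1 column for each of 6 libraries. Such values depend on transcript assembly, and loci that carry several gene names give 1 value for all of them (11 members). Members with near-identical copies or pseudogenes may share reads with them.

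Ratios were taken as log2 of quisinostat over DMSO FPKM without a pseudocount, for loci above 0 in all libraries, and called past 0.3. Library depth is unknown, so no counting interval was given. The test across lines was limma 3.58.1 in R 4.3.3 on log2(FPKM + 1), keeping loci whose FPKM averaged 1 or more, with a trend and the cell line as a block, since both libraries of a line come from the same cells. That each label marks a separate culture is not stated. Because FPKM are not counts, no count model was used. GC content and length came from GENCODE 29 transcripts, trends were lowess curves (span 0.3), and promoters came from RefSeq (GRCh38.p14). Scripts used Python 3.11.15 with pandas 2.3.3, SciPy 1.17.1 and statsmodels 0.14.6, and the limma and GC steps were tested on simulated data.

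Members and lists were chosen with earlier results of these data known. A rule set which genes to name with values (45 of 98 in all). For each complex it took the 3 members with the largest weakest ratio in each direction, the 2 with the widest range between lines and the most abundant one. Added to these were the SDH and SDHAF genes, CYC1, CYCS, ATPIF1, isoform sets, complex I core subunits, members at 0 in a library and the 5 smallest limma p-values. Of the genes it took, NDUFS5, UQCRQ and COX8A have no values in the text, and NDUFB10 has only a GC-corrected ratio. Others named were picked after their values were seen. The values of 1 member, which is in the counts, are not reported here. The alternatives tried were a pseudocount (0.01, 0.1 or 1), a floor on mean FPKM (1 or 5), centring, rescaling to a common sum, GC and length corrections, single-name loci, rows by gene name, thresholds of 0.5 and 1, and leaving out each line.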

Additional observations from a re-analysis of the deposited data

Results flagged for a closer look

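In 27 of the 98 members the log2 ratio of quisinostat over DMSO passed 0.3 in opposite directions in different lines. Among the 96 with a ratio in every line they were 26 (27.1%), against 29.3% of 9112 loci, so the share was near that of the whole table. Each line has 1 library per treatment, so these differences were not tested, and dose differs with the line. The values below are the highest minus the lowest log2 ratio of a gene.

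Lower in RT4 and SW780 and higher in RT112 cells were NDUFB7 (4.73), NDUFA11 (3.09), NDUFAF3 (2.65), NDUFA3 (2.26), NDUFA13 (2.14) and ATP5D (1.91). Lower in RT4 and higher in RT112 cells, with SW780 within 0.3, were NDUFS8 (2.53), UQCR11 (1.83), NDUFV1 (1.10), NDUFA2 (0.81), UQCRC1 (0.79) and NDUFC2 (0.77), and NDUFS7 (5.80) had the same order with no ratio in SW780 cells.

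Higher in RT4 and SW780 and lower in RT112 cells were COX11 (6.78), CYCS (1.31), NDUFAF2 (1.25), NDUFAF1 (0.93) and UQCRB (0.91). Higher in RT4 and lower in RT112 cells, with SW780 within 0.3, were NDUFAF4 (1.51), ATP5J (1.04), NDUFB3 (1.02), ATP5C1 (0.90) and ATP5H (0.89). COX7C (0.86) and COX7A2 (0.77) were lower in RT112 and higher in SW780 cells, and NDUFAF7 (0.83) and NDUFAF5 (4.20) were higher in RT4 and lower in SW780 cells. COX11, NDUFAF5, NDUFS7 and NDUFB7 were below 1 FPKM in at least 1 library. ATP5D, NDUFA11 and UQCR11 lie at loci that also carry other gene names (MBD3 for UQCR11).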

How the results depend on the processing

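No line has a replicate library and depth is unknown, so neither biological nor counting error could be set beside a ratio within a line. The limma fit without a replicate block also called 0 loci, with 106 lower and 314 higher at an unadjusted p under 0.05, 1 and 0 of them members. At a threshold of 0.5 the members lower and higher were 26 and 13 in RT4 cells, and 12 and 6 in SW780 cells. In RT112 cells 23 were lower, and members higher past 0.5 included NDUFAF5 (3.11), NDUFB7 (2.33) and NDUFS8 (1.43). At a threshold of 1 the members lower and higher were 14 and 5, 1 and 5, and 1 and 1 (RT4, RT112, SW780). In all 3 lines 0 were lower and 0 higher at either threshold. The count lower in all 3 lines was 2 after rescaling to a common sum, 7 after GC correction and 2 after length correction, and the count higher in all was 0 with a pseudocount of 1 and after centring, GC correction and length correction. Leaving out 1 line at a time gave 5 to 18 lower (18 without RT112, 11 without SW780) and 1 to 13 higher (13 without RT112, 2 without SW780). Shares over all loci were not set beside the threshold and leave-one-out counts, so they are not read as a trait of the members. GC correction left 12 members higher in RT4 cells and moved their median there to −0.26. It also turned the RT4 ratios of NDUFS8 (0.0094), NDUFV1 (0.26), NDUFB10 (0.30), SDHAF1 (0.34) and ATP5D (0.34), and the RT112 ratio of ATP5D (−0.70). The cause was not tested.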

Other observations

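The 5 pseudogene rows that the name rule matched were left out of every count. COX20P1 was 5.16 FPKM with DMSO and 4.20 with quisinostat in RT112 cells, and 0.135 or less in the other 4 libraries, while COX20 itself was 5.26 and 6.63 in RT112 cells. COX7CP1 was 13.0 and 9.95 in RT4, 14.6 and 6.34 in RT112 and 9.85 and 9.68 in SW780 cells, and CYCSP55 was 0.858 and 1.19, 4.09 and 1.65, and 1.94 and 2.27. In RT112 cells CYCS and CYCSP55 were both lower with quisinostat, and in RT4 cells both were higher. Reads shared between a gene and its copy cannot be told apart in these values.

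Across the 96 members the log2 ratios of RT4 and SW780 cells had a Spearman's rho of 0.70 (0.55 over 9112 loci), those of RT4 and RT112 cells −0.45 (0.04) and those of RT112 and SW780 cells −0.21 (0.20). After GC correction the values were 0.56, −0.25 and 0.03 for the members, and 0.55, 0.32 and 0.35 over 8492 loci. These are correlations across genes, which share libraries and base composition, and are given as a description.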
